A study of Mus musculus with 12 samples.

Results

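The genes described here are 32 genes of cholesterol synthesis and sterol regulation in hepatocytes from fatty mouse livers, taken by name from a table of 52636 genes, in which all 32 had a row. They comprised 18 enzymes that build cholesterol, 4 sensors and regulators of the pathway, 3 carriers of cholesterol inside the cell, 4 membrane transporters or receptors for export and uptake, and 3 enzymes that esterify cholesterol. All 32 passed the filter on low values, which kept the 16563 genes that reached 10 in 3 or more libraries. RNA-seq of polyadenylated RNA was made from 3 wild-type (WT) mice and 3 mice labelled as knockouts (KO) of Ptprk, a receptor tyrosine phosphatase. Each mouse gave 2 libraries, 1 from hepatocytes with low fat content and 1 from hepatocytes with high fat content. The 12 libraries thus fell into 4 groups of 3: low-fat WT, high-fat WT, low-fat KO and high-fat KO. All hepatocytes came from steatotic livers and were sorted by lipid content, away from dead and non-parenchymal cells, on a Percoll gradient with differential centrifugation. There was no lean liver and no unfractionated sample among them. The age, sex, strain and diet of the mice, the knockout allele and the tissue in which it was deleted are not given in the sources used here.

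Animal cells make cholesterol from acetyl-CoA: the mevalonate arm produces isoprenoid units, the squalene arm joins and cyclises them into the first sterol, and the remaining enzymes trim the sterol ring system into cholesterol. When membranes of the endoplasmic reticulum are poor in sterol, Scap carries the transcription factor encoded by Srebf2 to the Golgi, where it is cut free to switch on the enzymes; when sterol is plentiful, the Insig proteins hold Scap back. The liver also sends cholesterol out to bile and lipoproteins, takes it up from high-density lipoprotein and stores part of it as cholesteryl ester in lipid droplets.

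Values are the submitters' reads per gene scaled to 20000000 reads per library, called scaled reads below. From the spacing of the low values, the depth behind them was estimated at 15100000 to 25000000 reads per library, so that 3 reads were worth 2.40 to 3.98 scaled reads. Ptprk ranged from 2174 to 2883 in the 6 WT libraries and from 1117 to 1364 in the 6 KO libraries, so its reads were lower but still present in the KO. The summed level of 7 hepatocyte markers was 497662 to 576712 in all 12 libraries, with high-fat to low-fat ratios of 0.873 to 1.093 within mice; the sum was higher in the high-fat library in 1 of 6 mice, and the median log2 difference of the 7 markers was -0.15. Markers of macrophages, stellate and sinusoidal endothelial cells summed to more in the high-fat library of every mouse. The summed level of 10 Kupffer cell and macrophage markers was 483 to 1371 in low-fat and 2140 to 11664 in high-fat libraries, that of 8 stellate cell markers 128 to 666 and 2002 to 3549, and that of 7 sinusoidal endothelial markers 834 to 2117 and 3447 to 10406. Of these 3 lists, 8 of 10, 8 of 8 and 7 of 7 markers passed the test for a higher level in the high-fat libraries, and 1 stellate marker was at 0 in at least 1 library. The sum of 5 biliary markers was higher in the high-fat library in 0 of 6 mice (ratios 0.700 to 0.814), and that of 5 lymphocyte and neutrophil markers in 4 of 6 (ratios 0.365 to 7.88). Among hepatocyte zone markers, 3 of 7 pericentral genes were called higher in the high-fat libraries and 3 of 6 periportal genes lower. Summed pericentral markers were 49202 to 92075 in low-fat and 85303 to 119964 in high-fat libraries, and summed periportal markers 160950 to 198083 and 124148 to 151875. These differences run alongside every comparison of the fractions below, and their part in it was not tested.

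The sequence upstream of a few members is shown first, because binding sites in this stretch are how the Srebf2 product and its partners act on the pathway. RefSeq promoter windows of build GRCm38.p6, 250 bases before to 50 after the annotated start, matched 25 of the 32 members by symbol. They were searched on both strands for TCACNCCAC (a sterol regulatory element), CCAAT (bound by NF-Y), GGGCGG (the Sp1 box) and CACGTG (an E-box). This pattern of the sterol element was found in 1 of the 25, Hmgcs1, and in 1.44% of the 27025 genes in the table. Other forms of the element were not searched for, so the lack of a match does not show that a promoter has none. CCAAT was found in 22 of 25 members against 41.1% of all genes, GGGCGG in 21 of 25 against 38.2%, and CACGTG in 6 of 25 against 8.09%. Among the 10715 genes of the table that were also tested for expression, the shares were 1.51%, 42.5%, 64.8% and 11.4% in the same order. Printing was planned for promoters with the sterol element, and those of Insig1, Cyp51 and Soat1 were added after their expression results were seen. The 250 bases before the start are printed 5′ to 3′ on the gene's strand, in lower case with the matches to these motifs in capitals, and no match overlapped another. Hmgcs1 (chr13:119690101-119690350, plus strand) carries the sterol element and was higher in the high-fat library of every mouse, Insig1 (chr5:28071162-28071411, plus strand) and Cyp51 (chr5:4104698-4104947, minus strand) were lower in the high-fat library of every mouse, and Soat1 (chr1:156474329-156474578, minus strand) had the largest difference between fractions of the 32.
Hmgcs1: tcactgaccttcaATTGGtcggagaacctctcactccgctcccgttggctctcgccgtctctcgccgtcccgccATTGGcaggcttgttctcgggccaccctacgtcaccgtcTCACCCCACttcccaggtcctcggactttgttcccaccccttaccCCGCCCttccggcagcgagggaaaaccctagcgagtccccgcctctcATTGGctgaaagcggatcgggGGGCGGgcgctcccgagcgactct
Insig1: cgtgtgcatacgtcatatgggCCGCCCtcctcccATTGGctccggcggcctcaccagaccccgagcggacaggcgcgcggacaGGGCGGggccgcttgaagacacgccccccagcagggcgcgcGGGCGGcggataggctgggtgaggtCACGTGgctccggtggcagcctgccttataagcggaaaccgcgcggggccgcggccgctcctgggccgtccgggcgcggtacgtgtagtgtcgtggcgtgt
Cyp51: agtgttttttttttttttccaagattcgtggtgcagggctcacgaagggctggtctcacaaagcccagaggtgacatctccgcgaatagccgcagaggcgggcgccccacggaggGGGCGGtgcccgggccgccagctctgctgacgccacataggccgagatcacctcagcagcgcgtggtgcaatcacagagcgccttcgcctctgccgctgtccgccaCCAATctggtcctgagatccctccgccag
Soat1: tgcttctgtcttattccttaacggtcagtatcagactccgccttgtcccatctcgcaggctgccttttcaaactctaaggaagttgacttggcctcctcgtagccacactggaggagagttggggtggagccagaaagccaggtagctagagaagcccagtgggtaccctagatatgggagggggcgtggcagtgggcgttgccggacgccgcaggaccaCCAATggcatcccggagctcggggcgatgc
The sterol element of Hmgcs1 reads TCACCCCAC and lies 137 to 129 bases before the start, with CCAAT matches on the minus strand on either side of it. Insig1 has 3 Sp1 boxes, 1 CCAAT match and the E-box at 101 to 96 bases before the start. Cyp51 has 1 Sp1 box and a CCAAT match 29 to 25 bases before the start, and Soat1 has a CCAAT match at nearly the same place, 30 to 26 bases before the start. The counts above cover the whole window, with the 50 bases after the start that are not printed. Soat1 was counted there among the members with GGGCGG, although its printed bases hold no match to it. A match is a description of letters and does not show binding.

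The first question was how the sterol genes differed between high-fat and low-fat hepatocytes of the same livers. The differences were small and mostly negative, and 1 gene, Soat1, was 4.17-fold higher in the high-fat libraries. Over both genotypes 27 of the 32 had a negative log2 difference and 5 a positive one, where 54.8% of all genes tested were negative. The members' median was -0.09 beside -0.02 over all genes tested. In the deposited scaling, without TMM factors, 19 were negative and 13 positive, where 42.1% of all genes were negative. The medians there were -0.03 and 0.03. With single libraries left out the members' median ran from -0.18 (without the high-fat library of KO replicate 3) to -0.03 (without the low-fat library of that mouse), and it was -0.03 without both mice of replicate 1. In limma with Benjamini-Hochberg adjustment over all genes, 1 member passed an adjusted p of 0.05, Soat1, where 5.77% of all genes passed, 5.05% higher and 0.725% lower. With the mouse as a block, which compares the 2 libraries of each mouse with each other, 5 members passed, where 11.0% of all genes did (6.76% higher and 4.23% lower): Soat1 was higher, and Cyp51, Insig1, Stard4 and Scarb1 were lower. These calls are 3.12% and 15.6% of the members. By sign within mice on the TMM-scaled values, 11 members were lower in the high-fat library of all 6 mice, 34.4% of them where 11.6% of all genes were, and 2 were higher in all 6, 6.25% where 9.96% were. The 11 were Mvd, Sqle, Lss, Cyp51, Nsdhl, Sc5d, Dhcr7, Scap, Insig1, Stard4 and Scarb1, and the 2 were Hmgcs1 and Soat1. Under median-of-ratios scaling 9 remained lower in all 6 mice, where 10.3% of all genes were. In the deposited scaling 6 did, where 5.93% of all genes were, with Mvd, Sqle, Lss, Scap and Scarb1 no longer among them.

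**Figure D1:**
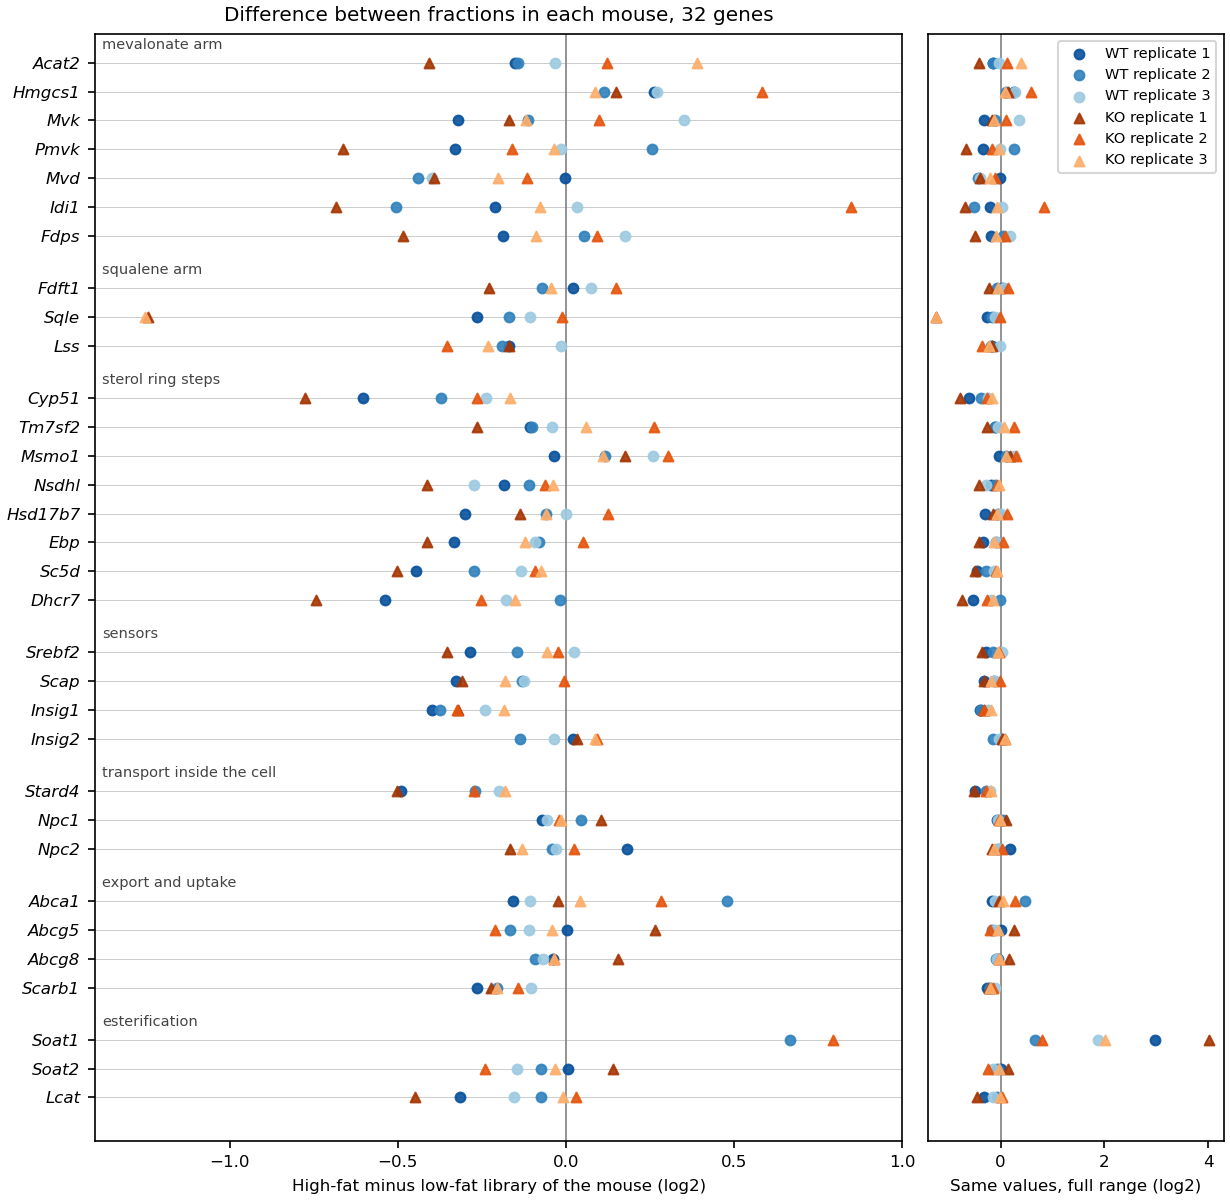
High-fat minus low-fat value within each mouse (log2, TMM-scaled values plus 2) for the 32 genes, grouped by role, with 1 point per mouse, circles for WT and triangles for KO; the right panel repeats the points on the full range. Points of 11 genes, among them Insig1, Stard4, Cyp51 and Scarb1, all lie left of 0, those of Hmgcs1 all lie right of it, and those of Soat1 run from 0.67 to 4.02.

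Soat1 (ENSMUSG00000026600) encodes the acyltransferase that turns free cholesterol into cholesteryl ester in most tissues and is abundant in macrophages, whereas Soat2 is the form known from hepatocytes and enterocytes. In low-fat libraries Soat1 read 29, 42 and 14 scaled reads in WT replicates 1 to 3 and 10, 34 and 13 in the KO. In high-fat libraries it read 257, 66 and 61 in the WT and 216, 61 and 58 in the KO. All 6 high-fat libraries lay above all 6 low-fat ones, and replicate 1 of each genotype stood far above the other high-fat libraries. The log2 difference over both genotypes was 2.06 (SE 0.45, 95% interval 1.06 to 3.06), a 4.17-fold higher value, with an adjusted p of 0.0214 in limma and 0.0218 with the mouse block. In this bulk RNA, a change in the number of cells of one type and a change in the RNA per cell cannot be told apart. The call was lost without the KO replicate 1 high-fat library (adjusted p = 0.0503) and without the low-fat libraries of KO replicate 1 (0.0617), KO replicate 3 (0.0538) or WT replicate 3 (0.0523). Without both mice of replicate 1 the difference was 1.36, with an adjusted p of 0.158 in limma and 0.0188 with the mouse block. In the blocked fit the adjusted p was 0.0825 without WT replicate 1, 0.0628 without WT replicate 3 and 0.0607 without KO replicate 3.

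The Soat1 levels followed those of macrophage genes across the 12 libraries. The summed level of the 10 Kupffer cell and macrophage markers was 1050, 1371 and 674 in low-fat WT, 483, 771 and 693 in low-fat KO, 11664, 2402 and 2333 in high-fat WT and 10117, 2374 and 2140 in high-fat KO libraries. None of the 10 was at 0 in any library. Highest and lowest library differed 25.7-fold for Soat1 and 24.15-fold for the marker sum, while Soat1 expressed as a percentage of the marker sum stayed between 1.88% and 4.41%, a 2.35-fold range. Among the 6 high-fat libraries that percentage was 2.14% to 2.75%. The summed sinusoidal endothelial markers were also highest in the high-fat libraries of replicate 1, at 10406 in the WT and 6771 in the KO. The part of RNA from macrophages or other non-parenchymal cells in the Soat1 difference was not tested. The other esterifying enzymes had small differences with intervals that include 0. Soat2 was 722 to 1185 in all libraries with a log2 difference between fractions of -0.06 (95% interval -0.34 to 0.22). Lcat, the secreted plasma enzyme that esterifies cholesterol on lipoproteins, was 5484 to 8022 with a difference of -0.16 (interval -0.40 to 0.08).

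**Figure D2:**
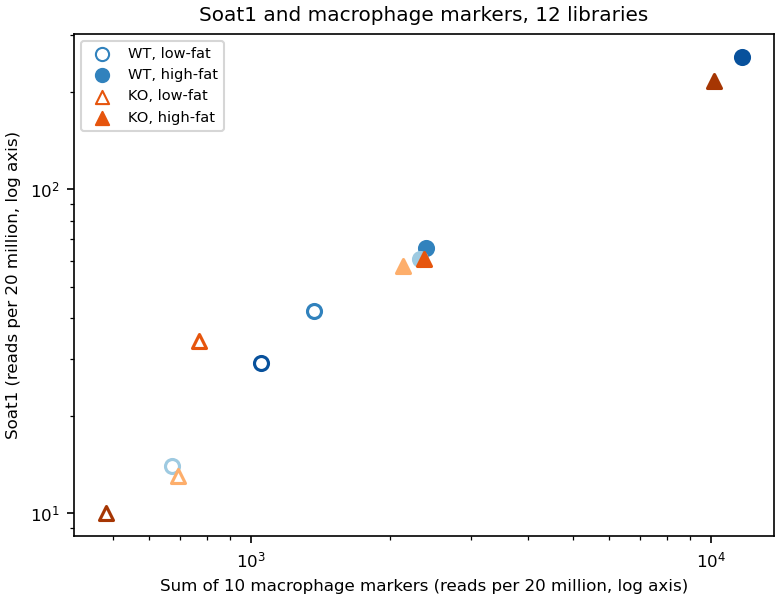
Soat1 against the summed level of 10 Kupffer cell and macrophage markers in each of the 12 libraries, both in scaled reads on log axes. The 6 high-fat libraries lie up and to the right of the 6 low-fat ones, and Soat1 amounts to 1.88% to 4.41% of the marker sum in all of them.

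Among the sensors and regulators, Insig1 was called lower in high-fat cells when libraries were compared within mice. Insig1 (ENSMUSG00000045294) holds Scap in the endoplasmic reticulum and is itself a target of the Srebf2 product. It read 5252, 4652 and 2555 in low-fat WT libraries and 4252, 3488 and 2339 in their high-fat partners, and 3605, 6790 and 7540 in low-fat KO libraries against 3246, 5467 and 6551. Each high-fat library was below the low-fat library of the same mouse, although the mice differed from each other and the groups overlapped. The log2 difference was -0.31, or 0.808-fold, and ran from -0.40 to -0.19 in single mice. Its adjusted p in limma was 0.586 without a block (SE 0.26) and 0.00745 with the mouse block (SE 0.05), and of the 6 mice left out in turn, WT replicate 1 was the one whose removal ended the blocked call (adjusted p = 0.0599). Leaving out a whole mouse in the blocked fit gave -0.33 to -0.26. Without a block, leaving out 1 library, which also breaks a pair, moved the value to -0.14 (high-fat KO replicate 1), -0.19 (high-fat WT replicate 3), -0.20 (low-fat WT replicate 1 or KO replicate 3) and -0.46 (low-fat KO replicate 1). Scap, the escort of the Srebf2 product, was lower in 6 of 6 mice on the TMM scale, by a log2 difference of -0.18, with an adjusted p of 0.126, or 0.0772 with the mouse block. Srebf2 itself was 903 to 1269, lower in 5 of 6 mice (log2 difference -0.14, adjusted p = 0.372, limma). Insig2, which does the work of Insig1 without being induced by the same factor, was higher in 4 mice and lower in 2, with a difference of 0.01 (95% interval -0.37 to 0.40).

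**Figure D3:**
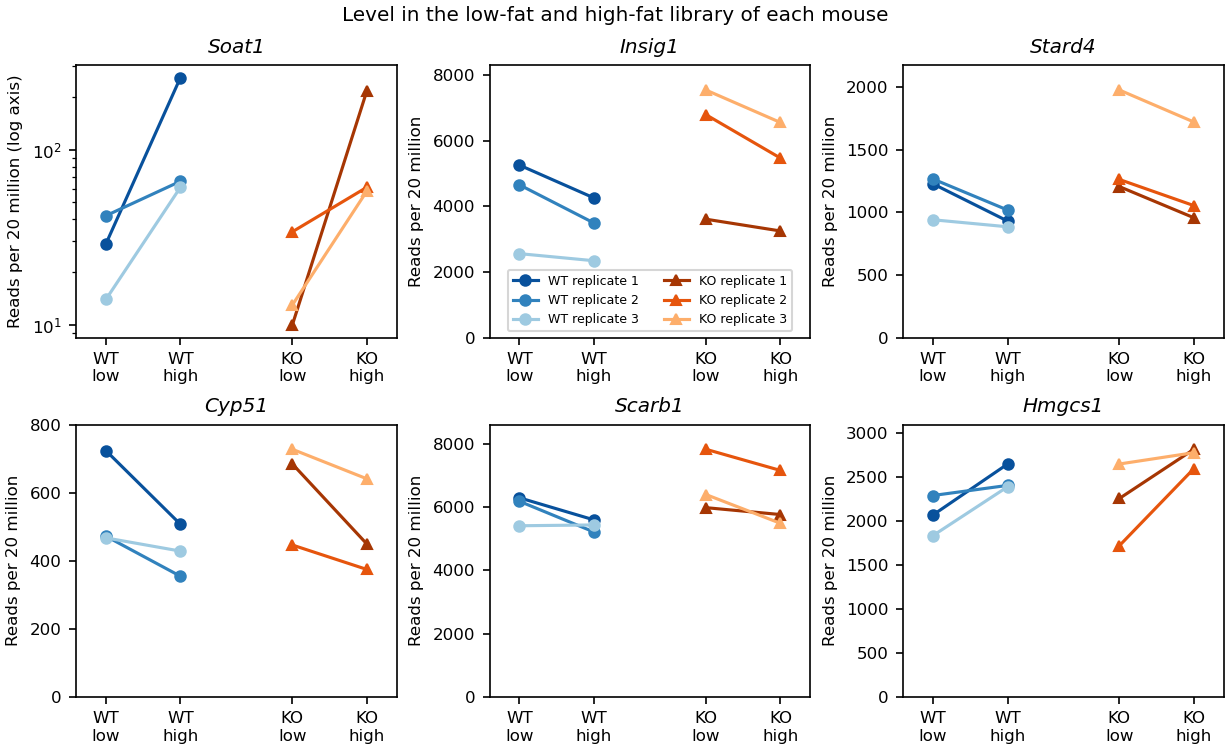
Deposited values (scaled reads) of the named genes in the 12 libraries, with a line joining the pair of libraries from each mouse, circles for WT and triangles for KO. The lines of Insig1, Stard4 and Cyp51 all slope down while starting at different heights, those of Soat1 all slope up, and the Scarb1 line of WT replicate 3 is flat (5411 and 5437).

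In the mevalonate arm the enzymes did not move together. Hmgcs1, which makes HMG-CoA, was the only one of the 7 with a positive difference, and it was singled out after its values were seen. Its values were 2071, 2293 and 1836 in low-fat WT and 2651, 2408 and 2392 in high-fat WT libraries, with no overlap. In the KO they were 2259, 1721 and 2652 in low-fat and 2820, 2600 and 2781 in high-fat libraries, where the groups overlapped. The log2 difference was 0.24 (SE 0.10, 95% interval 0.03 to 0.46), higher in 6 of 6 mice, with an adjusted p of 0.216, or 0.060 with the mouse block. Mvd, the decarboxylase that forms isopentenyl diphosphate, was a low-count gene at 77, 51 and 36 in low-fat WT and 82, 36 and 29 in high-fat WT libraries, and at 53, 56 and 55 against 45, 52 and 47 in the KO. Its difference of -0.26 (95% interval -0.79 to 0.27) was not called in either fit. Idi1, the isomerase of that unit, read 110, 74 and 47 against 101, 50 and 52 in the WT and 64, 25 and 108 against 44, 47 and 101 in the KO, so that 1 KO mouse was higher in high-fat cells by 0.85 on the log2 scale and another differed by -0.69. The remaining 4 enzymes had differences between -0.16 (Pmvk) and -0.04 (Acat2), with signs that differed between mice.

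All 3 enzymes of the squalene arm had negative differences. Sqle, the epoxidase that is a rate-setting step of the later pathway, read 68, 50 and 37 in low-fat and 60, 43 and 37 in high-fat WT libraries. In the KO it read 93, 42 and 87 in low-fat and 43, 42 and 35 in high-fat libraries. KO replicates 1 and 3 thus differed by -1.24 and -1.25 on the log2 scale and the other 4 mice by -0.27 to -0.01. WT replicate 3 and KO replicate 2 had equal deposited values in both libraries, so their sign rests on the TMM scaling. The log2 difference over both genotypes was -0.51 (95% interval -1.0 to -0.01, adjusted p = 0.260, or 0.120 with the mouse block, limma). Without the KO replicate 2 low-fat library it was -0.70, with an adjusted p of 0.0448. Lss, the cyclase that makes lanosterol, was 368 to 611 and lower in 6 of 6 mice on the TMM scale (log2 difference -0.19, adjusted p = 0.513, or 0.0602 with the block). Fdft1, which joins the isoprenoids into squalene, differed by -0.02 (95% interval -0.32 to 0.28), with 3 mice on each side.

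The sterol ring steps held the 1 synthesis enzyme of the 18 that was called in the blocked fit. Cyp51 (ENSMUSG00000001467), which removes a methyl group from lanosterol, read 725, 473 and 468 in low-fat WT libraries and 508, 355 and 429 in high-fat WT. In the KO it read 686, 447 and 729 in low-fat and 450, 375 and 642 in high-fat libraries. The high-fat library was the lower of the pair in every mouse, and the groups overlapped because mice differed. The log2 difference was -0.40, or 0.757-fold, from -0.78 to -0.17 in single mice, with an adjusted p of 0.288 (SE 0.19), or 0.0276 with the mouse block (SE 0.09). The blocked call was lost without KO replicate 3 (adjusted p = 0.0501) and without WT replicate 1 (0.147), 2 (0.0890) or 3 (0.0594). Without both mice of replicate 1 the difference was -0.24, with a blocked adjusted p of 0.0713. Nsdhl, which takes part in removing the next methyl groups, was 334, 236 and 204 against 313, 212 and 182 in the WT and 211, 147 and 291 against 178, 142 and 280 in the KO. It was lower in 6 of 6 mice, with a difference of -0.18 (95% interval -0.68 to 0.32). The SE was 0.23 without a block and 0.08 with the mouse block, where the adjusted p in limma was 0.164. Sc5d and Dhcr7, which act in the last steps, were also lower in 6 of 6 mice, by -0.25 and -0.31, with adjusted p values of 0.0606 and 0.0719 in the blocked fit. The other 4 were Msmo1 at 0.16, higher in 5 of 6 mice, and Tm7sf2, Hsd17b7 and Ebp at -0.03, -0.07 and -0.16.

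Of the genes that move cholesterol, Stard4 and Scarb1 were lower in high-fat hepatocytes. Stard4 (ENSMUSG00000024378), a soluble carrier of sterol between membranes whose gene is itself under sterol control, read 1228, 1267 and 941 in low-fat and 931, 1019 and 885 in high-fat WT libraries. In the KO it read 1206, 1263 and 1978 in low-fat and 957, 1054 and 1722 in high-fat libraries. All 6 mice had the lower value in the high-fat library, and the log2 difference was -0.32, or 0.801-fold, with an adjusted p of 0.371 (SE 0.17), or 0.0154 with the mouse block (SE 0.06). The blocked call was lost without WT replicate 1 (adjusted p = 0.0942) or WT replicate 2 (0.0572). Without a block, leaving out single libraries gave -0.47 (without high-fat KO replicate 3) to -0.205 (without low-fat KO replicate 3). Scarb1 (ENSMUSG00000037936), the receptor through which hepatocytes take cholesterol from high-density lipoprotein, read 6296, 6186 and 5411 against 5597, 5214 and 5437 in the WT and 5984, 7832 and 6400 against 5766, 7162 and 5489 in the KO. WT replicate 3 was level in the deposited values and lower by 0.10 on the log2 scale after TMM scaling, and the other 5 mice were lower on both scales. The difference was -0.19, or 0.877-fold, with an adjusted p of 0.230 (SE 0.08), or 0.0364 with the mouse block (SE 0.05). That blocked call was lost without any single WT mouse (adjusted p = 0.269, 0.121 and 0.105 for replicates 1 to 3) and without KO replicate 3 (0.155), and also without both mice of replicate 1 (0.121).

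The remaining carriers and exporters differed little between the fractions. Npc1 and Npc2, which release cholesterol from lysosomes, had log2 differences of -0.00 (95% interval -0.20 to 0.20) and -0.03 (interval -0.20 to 0.15). Abcg5 and Abcg8, the pair that pumps sterol into bile, differed by -0.04 and -0.02, with intervals of -0.29 to 0.20 and -0.25 to 0.21. Abca1, the exporter that forms high-density lipoprotein, was 9884 to 15386 and differed by 0.09 (interval -0.24 to 0.41), with 3 mice on each side.

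Within each genotype no member reached the threshold. In the WT 0 of 32 members passed, where 0% of all genes did, and 2 had an unadjusted p under 0.05, where 11.2% of all genes did (Soat1, log2 difference 1.84, and Scap, -0.19). In the KO 0 of 32 members passed, where 0.839% of all genes did, and 2 had an unadjusted p under 0.05, where 8.96% did (Soat1, 2.28, and Sqle, -0.84). With the mouse block the calls stayed at 0 in both, where 0% and 1.70% of all genes passed, with 7 members at an unadjusted p under 0.05 in the WT and 9 in the KO, where 19.4% and 14.8% of all genes were. On the TMM scale, libraries of the 2 fractions did not overlap in the WT for Hmgcs1 and Soat1, which were higher in the high-fat libraries (9.64% of all genes were), and for Scap and Scarb1, which were lower (7.73%). In the KO they did not overlap for Soat1, higher (7.80% of all genes), and for Mvd and Sqle, lower (5.57%). The test of the difference between genotypes in the fraction effect called 0 of 32 members, with 0 at an unadjusted p under 0.05, where 0.145% of all genes were. Insig1 differed by -0.34 between fractions in the WT and by -0.28 in the KO, Cyp51 by -0.40 in both, Stard4 by -0.32 in both and Scarb1 by -0.19 in both. Sqle gave the largest interaction, -0.66 (SE 0.45).

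A list of 29 further genes of sterol processing, isoprenoid side branches, bile acid synthesis and oxysterol handling was read from the same fit. Over both genotypes 2 of the 29 were called higher in the high-fat libraries and 1 lower, and with the mouse block 5 were higher and 2 lower. Over all genes 5.05% were called higher and 0.725% lower, or 6.76% and 4.23% with the block. Abcg1, a sterol exporter induced by oxysterol receptors and abundant in macrophages, was 35 to 155 in the low-fat and 170 to 610 in the high-fat libraries, a log2 difference of 1.59 (adjusted p = 0.0261, limma). Mylip, a ubiquitin ligase induced by the same receptors, was 23 to 95 in the low-fat and 111 to 506 in the high-fat libraries, a difference of 1.87 (adjusted p = 0.00812, limma). For both genes the highest values were in the high-fat library of replicate 1 of each genotype, as for Soat1 and the macrophage markers. The same held for the summed sinusoidal endothelial markers (10406 in the WT and 6771 in the KO). It also held for the summed lymphocyte and neutrophil markers (402 and 332). The summed stellate markers were highest there in the WT (3549) but not in the KO (2673, against 2871 in replicate 2). Erlin1, which takes part in sterol-regulated degradation at the endoplasmic reticulum, fell by 0.22 on the log2 scale (adjusted p = 0.0419, limma). The blocked fit added Cyp7a1 and Cyp27a1, the first enzymes of the classic and the alternative route of bile acid synthesis, and Gramd1b as higher, and Osbp as lower. Cyp7a1 was 734 to 3778 in the low-fat and 1383 to 4645 in the high-fat libraries, and Cyp27a1 4348 to 6574 and 7125 to 8788.

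The sterol genes also differed between mice of one genotype. Of the 32 genes, 23 were highest in KO replicate 3 among the 3 KO mice in both fractions, where 15.0% of all genes were, and 16 of these 23 were synthesis enzymes. WT replicate 1 was the highest of the WT mice in both fractions for 17 of 32, 12 of them synthesis enzymes, where 20.4% of all genes were. KO replicate 2 was the lowest KO mouse in both fractions for 11 of 32, 10 of them synthesis enzymes, where 11.6% of all genes were. The median of the 18 enzymes, as a log2 deviation from each gene's mean over 12 libraries, was 0.47 and 0.40 in the low-fat and high-fat cells of KO replicate 3 and 0.34 and 0.10 in those of WT replicate 1. It was -0.30 and -0.25 in KO replicate 2, -0.17 and -0.22 in WT replicate 3 and -0.09 and -0.20 in WT replicate 2. In KO replicate 1 it had opposite signs in the 2 libraries, 0.16 (low-fat) and -0.23 (high-fat).

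Individual enzymes showed the size of this spread. Fdps, which makes farnesyl diphosphate, read 1047, 568 and 469 in low-fat WT, 981, 573 and 573 in high-fat WT, 862, 381 and 1007 in low-fat KO and 693, 410 and 935 in high-fat KO libraries, a 2.75-fold range over all. Dhcr7, the reductase of the last step, ranged from 409 to 1191, and Idi1 from 25 to 110. Insig1, like most enzymes, was highest in WT replicate 1 and KO replicate 3 of their genotypes in both fractions, but its order of the other KO mice differed. KO replicate 2 had 6790 and 5467 of it, more than any WT library, while 10 of its 18 synthesis enzymes were the lowest of the 3 KO mice. Insig2 took another order again, with 11704 and 12673 in WT replicate 1 and 5439 and 5856 in KO replicate 2. Genes at the flat end were Ebp, 2919 to 3734, and Scap, 3652 to 4827. Circadian genes, which pace sterol synthesis in liver, also differed between these mice, in both directions. Dbp, with the largest genotype difference of the listed clock genes, was 77 in both libraries of WT replicate 1. It was 231 to 611 in those of WT replicates 2 and 3 and KO replicate 1, and 1498 to 2011 in those of KO replicates 2 and 3. Npas2 was 368 and 390 in WT replicate 1, 356 and 299 in WT replicate 2 and 98 and 102 in WT replicate 3. In KO replicates 1 to 3 it was 208 and 228, 38 and 27, and 112 and 96. KO replicates 2 and 3 were both high in Dbp, while the enzyme medians were negative in replicate 2 and positive in replicate 3. The part of the clock in the spread between mice was not tested.

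**Figure D4:**
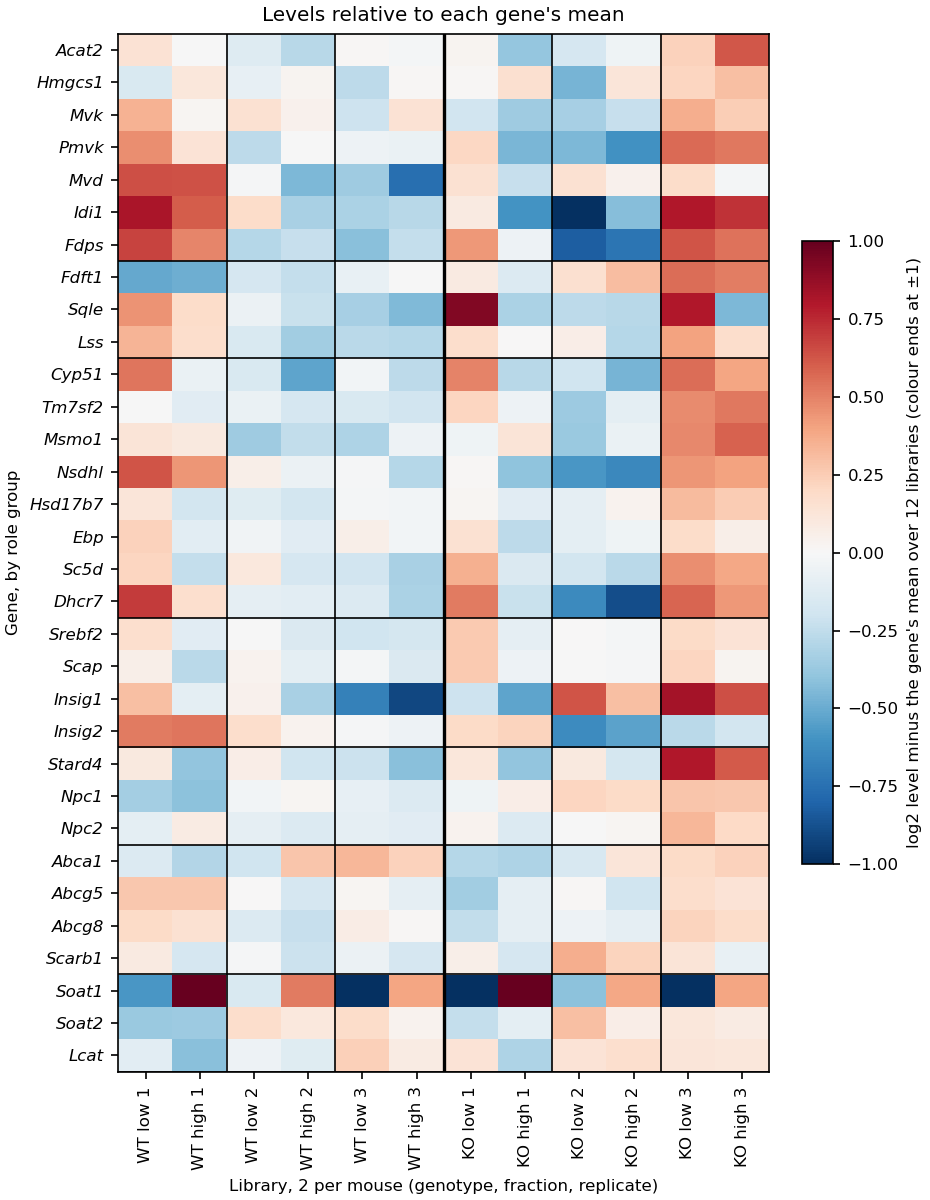
Log2 deviation of each of the 32 genes from its own mean over the 12 libraries (colour scale, TMM-scaled values), with genes in rows by role and libraries in columns by genotype, mouse and fraction. The synthesis enzymes are mostly above their mean in both libraries of KO replicate 3, whose medians are 0.47 and 0.40, and mostly below it in those of KO replicate 2, whose medians are -0.30 and -0.25.

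The second question was whether loss of Ptprk changed these genes. No member passed the test, and the measured differences were mostly small and positive. With both fractions averaged per mouse, 3 KO against 3 WT mice, 21 of 32 members were higher and 11 lower in the KO. Of all genes, 53.6% were lower. The members' median log2 difference was 0.12 beside -0.01 over all genes. The members' median was 0.04 without KO replicate 3 and 0.18 without KO replicate 2, and its SD between mice was 0.227. In limma 0 of 32 were called, where 0.00604% of all genes were (Ptprk alone), and 2 members had an unadjusted p under 0.05, where 2.19% of all genes did. Within the low-fat libraries 0 of 32 were called, where 0.00604% of all genes were, and 2 had an unadjusted p under 0.05, where 1.72% did. Within the high-fat libraries 0 of 32 were called, where 0.00604% were, and 2 had an unadjusted p under 0.05, where 2.02% did. With the replicate number as a block the calls stayed at 0 in each, and voom weights also gave 0. The block left 3 members at an unadjusted p under 0.05 in each, where 3.98% of all genes were for the mouse means, 3.24% for low-fat and 3.94% for high-fat cells. The 2 genes under 0.05 without a block were Fdft1 and Npc1 in all of these comparisons. With the block Insig2, lower in the KO, joined them in each. Its unadjusted p in limma was 0.0123 for the mouse means, 0.00262 for low-fat and 0.0148 for high-fat cells. Marker genes differed between the genotypes as well: in the mouse means 6 of 7 sinusoidal endothelial markers (median log2 difference -0.59) and 2 of 7 pericentral markers (median -0.50) had an unadjusted p under 0.05, with 0 called. The 11 clock genes differed in both directions, from -1.33 (Npas2) to 1.87 (Dbp), with a median of 0.48 and 0 under 0.05. The part of these differences in the members' values was not tested.

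Fdft1 (ENSMUSG00000021273), the squalene synthase, read 505, 675 and 651 in low-fat WT and 745, 826 and 1050 in low-fat KO libraries, with no overlap. In the high-fat libraries it read 547, 624 and 741 in the WT and 715, 924 and 1006 in the KO, where 1 KO library lay below the highest WT one. The log2 difference per mouse was 0.49 (SE 0.17, 95% interval 0.10 to 0.89), a 1.41-fold higher value, with an unadjusted p of 0.0213 and an adjusted p of 1 in limma. Npc1, named after its values were seen, read 3404, 4442 and 3889 in low-fat and 3454, 4453 and 4040 in high-fat WT libraries, and 4073, 5132 and 5185 in low-fat and 4926, 5102 and 5070 in high-fat KO libraries. Its difference was 0.33 (SE 0.12, interval 0.05 to 0.60), again with an adjusted p of 1. Mouse means did not overlap for 3 members that were higher in the KO, Fdft1, Npc1 and Scap (2.56% of all genes), and for 0 that were lower (3.82%). Library by library on the TMM scale, 2 members were higher in all low-fat KO libraries than in any WT one, Fdft1 and Npc2 (2.43% of all genes), and 5 in all high-fat KO libraries, Hmgcs1, Tm7sf2, Srebf2, Scap and Npc1 (2.13% of all genes). None was lower in all KO libraries of either fraction (3.01% and 3.07% of all genes).

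The other members named for the size of their genotype difference had wide intervals. Insig1 was 1.47-fold higher in the KO, a log2 difference of 0.56 (95% interval -0.20 to 1.31), carried by KO replicates 2 and 3, since KO replicate 1 lay within the WT range. Insig2 showed the opposite sign, -0.40 (interval -0.92 to 0.12). Stard4 was higher by 0.35 (interval -0.15 to 0.86), or by 0.09 without KO replicate 3, and Scarb1 by 0.18 (interval -0.07 to 0.42). Idi1 and Nsdhl were lower by -0.23 (interval -1.25 to 0.79) and -0.26 (interval -0.93 to 0.41), and Soat1 by -0.36 (interval -1.24 to 0.53). The medians by role were 0.00 in the mevalonate arm, 0.18 in the squalene arm, 0.15 in the sterol ring steps, 0.15 among the sensors, 0.33 among the carriers inside the cell, -0.05 in export and uptake and 0.08 in esterification. Of the 29 further pathway genes 0 were called and 0 had an unadjusted p under 0.05 (limma); Cyp7a1 had the largest negative difference, -0.89 (adjusted p = 1). The intervals give the sizes of difference that the data leave possible with 3 mice per genotype.

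**Figure D5:**
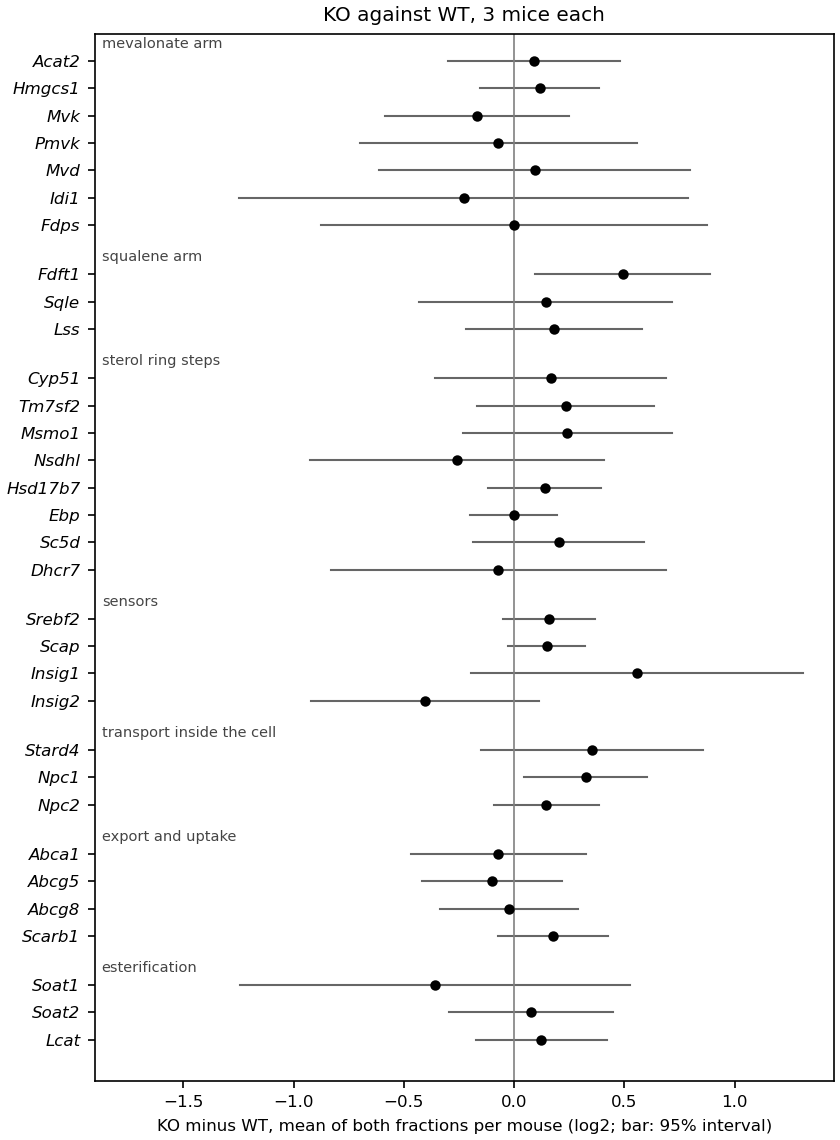
Log2 difference of KO against WT for the 32 genes, from the mean of both fractions in 3 mice per genotype, with 95% intervals from limma and genes in order of role. The intervals of Fdft1 (0.10 to 0.89) and Npc1 (0.05 to 0.60) lie above 0 before adjustment, and neither gene passed the adjusted threshold.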

How the data were processed

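Gene reads were scaled by the authors to 20000000 per library and rounded up, so the deposited values are treated as a score and not as counts; the unit was read from the values themselves, whose column sums are 20005960 to 20013668. The genome build is mm9 per the submitters' processing notes, and the aligner, counter and strand setting are not given in the sources used here. The gene table was scaled by TMM factors and tested as log2(value + 2) with limma 3.58.1 (trend on) in R 4.3.3, over 4 group means and 12 libraries, with Benjamini-Hochberg adjustment over 16563 genes with at least 10 in at least 3 libraries. The log2 differences understate changes of low genes. Genotypes were also compared on the mean of both libraries of each mouse. Summaries used Python 3.11.15 with pandas 2.3.3 and numpy 2.4.6. The scripts were tested on simulated data.

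The 2 libraries of a mouse carry its name in the labels and pair the fractions; their deviations from the group means correlated at 0.469 to 0.582 in the WT and -0.009 to 0.46 in the KO. Same-numbered WT and KO mice are separate animals, whose deviations correlated at 0.251 to 0.396 in low-fat and -0.171 to 0.49 in high-fat libraries.

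The members, lists and tests were chosen with earlier results of these data known. Values are printed library by library for members called in any comparison with or without the block, and for the member with the largest fraction and genotype difference in each role. Of the other pathway genes, those called and the largest changes are named. Alternatives were other scalings, no filter, other pseudocounts, voom weights, a same-mouse correlation of 0.38, only the libraries compared, and each library left out; leaving out both mice of replicate number 1, and each mouse under the block, was added after seeing the data.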

Additional observations from a re-analysis of the deposited data

How the results depend on the processing

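The fraction comparison over both genotypes was the count that moved, and the count over all 16563 genes moved as well. Without a block 1 member was called (956 of all genes), and with the mouse block 5 (1819). A same-mouse correlation gave 2, Soat1 and Scap (1992 of all genes), and voom weights gave 0 (662). Leaving out single libraries gave 0 to 3 members (604 to 1103 of all genes). Without both mice of replicate number 1 the count was 0 (359 of all genes), or 3 with the mouse block (1178). With the block, leaving out WT replicates 1, 2 and 3 gave 0, 2 and 2 members, where 526, 689 and 981 of all genes were called. Leaving out KO replicates 1, 2 and 3 gave 6, 8 and 2 members, where 1610, 2702 and 940 were. The cause was not tested. The members' median fraction difference ran from -0.189 to -0.012 in the WT and from -0.201 to 0.035 in the KO when single libraries were left out. In the WT it was nearest 0 without the low-fat library of replicate 1, and in the KO it was -0.001 without the high-fat library of replicate 1 and positive without the low-fat library of replicate 3. Over both genotypes it ran from -0.176 to -0.028. The median of KO against WT ran from 0.035 to 0.184 with single mice left out, from -0.012 to 0.228 in low-fat and from 0.031 to 0.166 in high-fat libraries with single libraries left out.

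Small differences changed sign, and for these too the cause was not tested. For the fractions, Idi1 ran from -0.387 to 0.132 with single libraries left out, was 0.078 without KO replicate 1 under the block and 0.09 without both mice of replicate number 1, in both fits. Fdft1 ran from -0.089 to 0.075, and was 0.038 in the deposited scaling, 0.044 without both mice of replicate number 1 in both fits, and 0.031, 0.009 and 0.004 under the block without KO replicate 1, WT replicate 1 and WT replicate 2. For KO against WT, single mice left out gave -0.027 to 0.373 for Cyp51, -0.722 to 0.003 for Soat1, -0.161 to 0.437 for Mvd, -0.664 to 0.141 for Idi1 and -0.017 to 0.336 for Sqle. The block changed no member's call in the genotype comparisons.

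With 3 mice per genotype, the spread between mice limits the precision, and low-count genes such as Sqle, with a median of 43.0 scaled reads, are limited further by depth.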
